A study of Arabidopsis thaliana with 20 samples.

Results

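The 2 H3K4me3 and the 2 H3K36me3 ChIP-seq libraries of WT *Arabidopsis thaliana* seedlings were compared for where each mark lay relative to the transcription start site (TSS), how far it reached into the gene and which genes carried one mark without the other. They are 4 of the 20 libraries of the series, which covers WT (Columbia) and *h3.3kd* plants grown on plates for 10 days and 5 antibodies, with 2 replicates per genotype and antibody. The libraries were chosen by their genotype and antibody labels. Nothing in the labels says whether the replicates came from separate plants, so each comparison is set against the spread between 2 libraries, which may be technical. The 4 H3K4me3 and H3K36me3 libraries of *h3.3kd* served as libraries that none of the rules used. This line has insertions in *HTR4* and *HTR8* and an artificial microRNA against *HTR5*. The WT H3 libraries were set beside the marks. They also filtered the lists of genes with one mark, by a minimum H3 level, and the background tiles, by the presence of H3 reads. Whole seedlings mix many cell types, so a level near a gene is an average over tissues, and a mark on few cells cannot be told apart from a weak mark on all of them.

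H3K4me3 is trimethylation of lysine 4 of histone H3, which in plants is placed by ATX1, SDG2 and related methyltransferases and is found over the first nucleosomes of transcribed genes. H3K36me3 is trimethylation of lysine 36, placed in *Arabidopsis* mainly by SDG8, a methyltransferase that travels with elongating RNA polymerase II. In animals and yeast H3K36me3 accumulates toward the 3′ part of genes, whereas in plants it is known for lying nearer the 5′ end. The comparison addresses how far these marks, both tied to transcription, overlap along the same genes.

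The libraries held 26160523 and 53927583 nuclear reads for H3K4me3 and 26992341 and 18036888 for H3K36me3, for replicates 1 and 2 in that order. Levels are read densities as fold over the nuclear mean of the same library, so a level of 1 is the genome average, and the median level of tiles far from genes was 0.478 and 0.199 for H3K4me3 and 0.406 and 0.334 for H3K36me3. No position held more than 2 reads in any library, and in H3K4me3 replicate 2 the first 500 bp held over 1 read per position in 45.9% of genes, against 0% in the other 3, which compresses its highest levels. The distance between reads of opposite strands was 230 bp in H3K4me3 replicate 1 and 245 and 160 bp in H3K36me3, and H3K4me3 replicate 2 lists no strand. H3K36me3 replicate 2 stood apart from H3K36me3 replicate 1 in the shape of its profile, and its shape was near that of the H3K4me3 libraries, although gene by gene over the first 500 bp it correlated more with the other H3K36me3 library (Pearson r across 26205 genes 0.953) than with the H3K4me3 libraries (0.909 and 0.930). At +1000 to +1500 bp of 14444 genes these values were 0.941, against 0.817 and 0.924. For the fall from the first 500 bp to +1000 to +1500 bp the order was the other, with 0.821 against the other H3K36me3 library and 0.867 and 0.860 against the H3K4me3 libraries. Genes are not independent replicates, and these correlations are descriptions. The profile measures and the lists of genes with one mark are therefore also given within replicate 1 and within replicate 2, and the gene-by-gene tests without single libraries. The distance between strands split those of the 14 libraries used here that list a strand by replicate number, with 215 to 255 bp in replicate 1 and 115 to 160 bp in replicate 2, so replicate number and this distance cannot be told apart.

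Both marks peaked a short way downstream of the TSS, and the position of the peak did not separate them. Over 2966 genes of at least 3000 bp with no other gene within 1000 bp upstream, the highest point of the mean profile lay at +445 and +425 bp in the H3K4me3 libraries, against +595 and +395 bp in the H3K36me3 libraries. The H3K4me3 libraries lay close together and between the H3K36me3 libraries, so the groups overlapped. The mean was 435 ± 14.1 bp for H3K4me3 and 495 ± 141 bp for H3K36me3 (SD, n = 2 each), a difference of -60 bp (exact two-sided permutation test, p = 1). With 2 libraries against 2 the smallest p this test can give is 0.333. H3K4me3 minus H3K36me3 was -150 bp within replicate 1 and 30 bp within replicate 2, and without H3K36me3 replicate 1 the difference of the means was 40 bp. The height of the peak was 2.29 and 2.61 for H3K4me3 and 1.92 and 2.30 for H3K36me3.

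**Figure D1:**
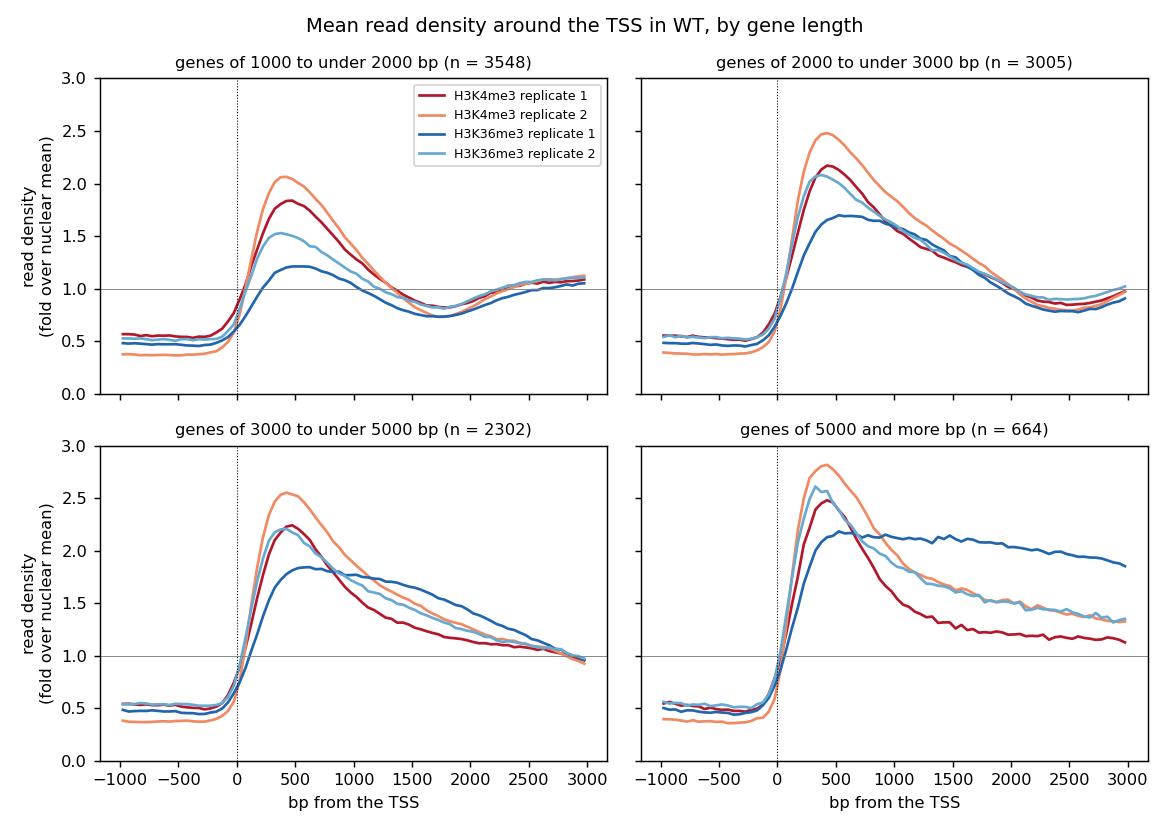
Mean read density (fold over the nuclear mean) against distance from the TSS in bp, for 4 classes of gene length, with 1 line per WT library (reds H3K4me3, blues H3K36me3). In genes of 5000 bp and more, H3K36me3 replicate 1 stays near its peak level out to +3000 bp, while H3K36me3 replicate 2 falls along with the H3K4me3 libraries.

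Within +3000 bp of the TSS, H3K36me3 reached farther into the gene than H3K4me3 in both replicates, by very different amounts. The profile fell midway between its peak and the library's background at +1245 and +1755 bp in the H3K4me3 libraries, against +2965 and +1885 bp in the H3K36me3 libraries. The groups did not overlap, but the higher H3K4me3 library and the lower H3K36me3 library were 130 bp apart, and the value of H3K36me3 replicate 1 lies next to the end of the +3000 bp window. The difference was -925 bp on average (exact two-sided permutation test, p = 0.333), -1720 bp within replicate 1 and -130 bp within replicate 2. Of the reads between the TSS and +3000 bp, 56.4% and 56.0% lay beyond +1000 bp for H3K4me3 and 65.0% and 58.2% for H3K36me3. Here too both H3K36me3 libraries were above both H3K4me3 libraries, with H3K4me3 minus H3K36me3 at -8.67 percentage points within replicate 1 and -2.16 within replicate 2 (mean difference -5.41 points, exact two-sided permutation test, p = 0.333). With each position counted once the difference was -475 bp and -3.40 points, and the groups overlapped in both measures. After division by H3 the midway extent differed by -760 bp and its groups overlapped. The WT H3 libraries, made with an antibody to the histone itself, had 70.2% and 63.7% of their reads beyond +1000 bp, which is more than any of the 4 H3K4me3 and H3K36me3 libraries except H3K36me3 replicate 1 against H3 replicate 2.

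**Figure D2:**
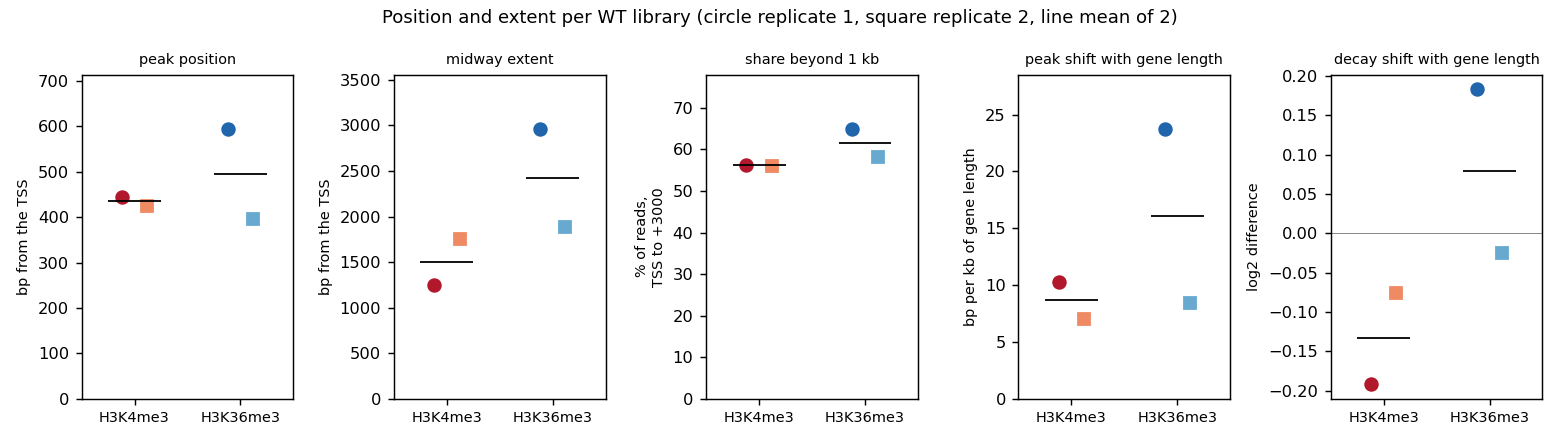
One panel per measure of position, extent and dependence on gene length, with 1 point per WT library (circles replicate 1, squares replicate 2, bars the mean of 2 libraries, H3K4me3 left and H3K36me3 right). The squares lie nearer to each other than the circles do in every panel, and the circle of H3K36me3, at +595 bp for the peak and +2965 bp for the midway extent, lies above the other 3 points throughout.

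Along the whole gene the fall of H3K4me3 and of H3K36me3 was compared in 10 equal bins. In the 664 isolated genes of 5000 bp and more, the density in the middle 2 bins was 57.5% of the highest bin in each of the H3K4me3 libraries, against 87.4% and 62.2% in the H3K36me3 libraries. H3K36me3 replicate 1 was highest in bin 2, and the other 3 libraries were highest in bin 1. All 4 libraries fell below the nuclear mean in the last bin, to 0.821 and 0.737 for H3K4me3 and 0.794 and 0.896 for H3K36me3. Neither mark was thus above the genome average at the 3′ end of long genes. These levels were still above the backgrounds of 0.478 and 0.199 for H3K4me3 and 0.406 and 0.334 for H3K36me3. In the 3005 genes of 2000 to under 3000 bp the middle 2 bins were at 68.6% and 68.3% of the highest bin for H3K4me3 and 87.7% and 71.2% for H3K36me3. There, 39.0% and 37.0% of the summed density lay beyond the middle of the gene for H3K4me3, and 41.7% and 39.4% for H3K36me3. In genes of 3000 to under 5000 bp this share was 38.8% and 35.4% against 39.6% and 38.2%. At 5000 bp and more it was 40.9% and 37.05% against 39.7% and 38.9%. The groups overlapped in both of these classes, and in the longest class H3K4me3 was higher within replicate 1.

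**Figure D3:**
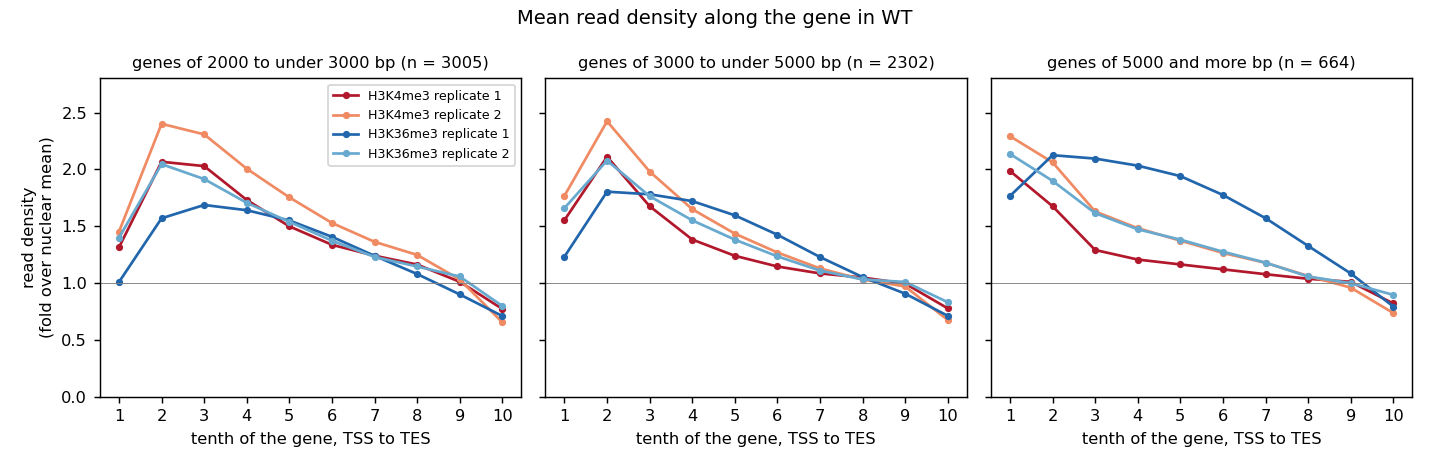
Mean read density (fold over the nuclear mean) in 10 equal bins from the TSS to the transcription end site (TES) for 3 classes of gene length, with 1 line per WT library (reds H3K4me3, blues H3K36me3). In genes of 5000 bp and more, H3K36me3 replicate 1 is at 1.94 in bin 5, against 1.16 and 1.37 for H3K4me3 and 1.38 for H3K36me3 replicate 2, and all 4 lines end below 1.

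Gene length moved the level of both marks more than it moved their peaks. The peak of H3K4me3 lay at +315 and +355 bp in genes of 500 to under 1000 bp and at +415 and +405 bp in genes of 5000 bp and more. The peak of H3K36me3 lay at +385 and +275 bp in the shortest class and at +555 and +335 bp in the longest. Over 5 length classes the slope was 10.3 and 7.03 bp per kb for H3K4me3 and 23.8 and 8.40 bp per kb for H3K36me3, with overlapping groups (mean difference -7.42 bp per kb, exact two-sided permutation test, p = 0.667). Without H3K36me3 replicate 1 the difference was 0.26 bp per kb, and after division by H3 it was -38.2 bp per kb. The height of the peak rose with gene length in all 4 libraries. It was 2.49 and 2.82 for H3K4me3 in genes of 5000 bp and more, against 1.37 and 1.43 in genes under 1000 bp, and for H3K36me3 it was 2.19 and 2.61 against 0.810 and 1.00. In the shortest genes the peak of H3K36me3 was thus near or below the genome average, and that of H3K4me3 above it in both libraries. H3 had peak levels of 1.32 and 1.15 in the same short genes.

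The fall after the peak changed with length in opposite directions in the replicate 1 libraries. From genes of 2000 to under 3000 bp to genes of 5000 bp and more, log2 of the density at +1000 to +1500 bp over that of the first 500 bp changed by -0.19 and -0.08 for H3K4me3, against 0.18 and -0.03 for H3K36me3. Both H3K4me3 libraries were below both H3K36me3 libraries, with a mean difference of -0.21 (exact two-sided permutation test, p = 0.333), -0.37 within replicate 1 and -0.05 within replicate 2. In genes of 5000 bp and more the level at +1000 to +1500 bp was 1.40 and 1.77 for H3K4me3 and 2.11 and 1.73 for H3K36me3, so H3K36me3 replicate 2 was below H3K4me3 replicate 2 there.

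Single genes gave the same picture as the mean profiles. In 3376 isolated genes of 2000 bp and more with a summit (200 bp mean) of at least 2 in all 4 libraries, the median summit was at +470 and +440 bp for H3K4me3 and +690 and +430 bp for H3K36me3. The middle 50% of summits ran from 370 to 630 bp and from 330 to 620 bp for H3K4me3, and from 490 to 1030 bp and from 310 to 620 bp for H3K36me3. In the 483 such genes of 5000 bp and more, 4.14% and 4.35% of H3K4me3 summits lay beyond +1000 bp, against 48.6% and 7.45% of H3K36me3 summits. The late summits of H3K36me3 were therefore a feature of replicate 1.

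The paper reports altered H3K36me3 profiles in *h3.3kd*, so these libraries are not replicates of WT. The *h3.3kd* libraries, which share the replicate numbers, showed the same split between replicates in the position of the peak. It lay at +435 and +425 bp for H3K4me3 and +625 and +395 bp for H3K36me3. The midway extent was +1605 and +1635 bp for H3K4me3 and +2135 and +2035 bp for H3K36me3, and the share of reads beyond +1000 bp was 56.5% and 54.1% for H3K4me3 and 59.5% and 59.1% for H3K36me3. As in WT, both H3K36me3 libraries reached farther than both H3K4me3 libraries (exact two-sided permutation test, p = 0.333 for each measure), and here replicate 2 differed by -400 bp and replicate 1 by -530 bp. The shape of H3 differed between the WT replicates as well. In genes of 5000 bp and more, the 500 bp upstream of the TSS stood at 0.601 in H3 replicate 1 and 1.04 in H3 replicate 2, and the first 500 bp at 0.940 and 1.25. The part of this difference in the profiles of the marks was not tested.

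The position of both marks also differed between genes without and with introns, which was not tested. Among isolated genes of 1000 to under 2000 bp, the 1048 genes without introns had the peak of H3K4me3 at +485 and +495 bp, against +395 and +365 bp in the 2500 genes with introns. For H3K36me3 it lay at +615 and +485 bp in genes without introns, against +555 and +345 bp in genes with introns. The level of the peak in genes without introns, against genes with introns, was 2.20 and 2.58 against 1.73 and 1.89 for H3K4me3, and 1.24 and 1.70 against 1.22 and 1.51 for H3K36me3. At the peak, intronless genes thus had more H3K4me3 in both libraries, and for H3K36me3 the difference was small in replicate 1. Over the first 500 bp they had 1.59 and 1.82 against 1.46 and 1.57 for H3K4me3. For H3K36me3 they had 0.931 and 1.32 against 1.03 and 1.31 there, lower in replicate 1 and near equal in replicate 2. The peak of H3 was also higher in intronless genes, at 1.5 and 1.36 against 1.21 and 1.24. The genes without introns were shorter (median 1368 bp against 1600 bp).

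Gene by gene over the first 500 bp, most calls were higher in H3K4me3. Of 25966 protein-coding genes tested with limma, 1584 (6.1%) were higher in H3K4me3 and 1 (0.00385%) was higher in H3K36me3 at a Benjamini-Hochberg adjusted p under 0.05. The median difference over all genes was 0.20 on the log2(RPM + 0.1) scale, where RPM is the read count scaled to the nuclear reads of the library and adding 0.1 shrinks the differences of sparsely covered windows. The direction of the calls rested on the scaling. With each library centred on its median gene the median difference was -0.29, 974 genes were higher in H3K4me3 and 8378 were higher in H3K36me3. Leaving out H3K4me3 replicate 2 left 0 calls, leaving out H3K4me3 replicate 1 left 116 higher in H3K4me3, and leaving out H3K36me3 replicate 1 left 80. The genes called higher in H3K4me3 had a median length of 1514 bp against 2153 bp for all genes tested, and 41.1% of them had no intron against 17.3% of all. In *h3.3kd*, both H3K4me3 libraries were above both H3K36me3 libraries in 1527 of the 1584 genes (96.4%), against 44.2% of all genes tested.

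*HDA7*, which encodes a histone deacetylase, had the largest difference among called genes with at least 50 reads. Its level over the first 500 bp was 2.01 and 3.15 in the H3K4me3 libraries and 0.530 and 0.779 in the H3K36me3 libraries (log2 difference 1.93 ± 0.31 SE, limma adjusted p = 1.25e-05). Both H3K4me3 values were more than 1 above both H3K36me3 values. *AGP5*, for an arabinogalactan protein of the cell wall, had 2.11 and 2.52 for H3K4me3 against 0.733 and 0.568 for H3K36me3 (1.80 ± 0.31, limma adjusted p = 3.85e-05). *TTL2*, for a tetratricopeptide repeat protein, and *DDF2*, for an AP2-type transcription factor (AT1G63030), differed as much (1.80 each), and the H3K4me3 level of *DDF2* was 1.86 and 2.27 against 0.591 and 0.555. AT3G22142 completed the 5 largest, with 0.765 and 2.03 against 0.441 and 0.264, but it lies entirely within AT3G22125 on the other strand, and reads were counted without strand. The gene called higher in H3K36me3 was AT1G28765 (chromosome 1, 10105047 to 10107645), of unknown function, with 0.802 and 0.919 for H3K4me3 and 1.85 and 1.52 for H3K36me3 (log2 difference -0.94 ± 0.31, limma adjusted p = 0.0387). It overlaps 4 other annotated genes, so its reads cannot be assigned to it alone. In *h3.3kd* the H3K36me3 libraries were not both above the H3K4me3 libraries for AT1G28765, as they were in 10.2% of all genes tested.

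Beyond +1000 bp the median gene was higher in H3K36me3, while the calls were mostly genes higher in H3K4me3. Over the body from +1000 bp to the TES of 14376 genes of at least 2000 bp, 540 genes (3.76%) were higher in H3K4me3 and 57 (0.396%) in H3K36me3, with a median log2 difference of -0.20. The median difference was -0.14 in genes of 2000 to under 3000 bp, -0.21 in genes of 3000 to under 5000 bp and -0.36 in genes of 5000 bp and more. Of the 57 genes higher in H3K36me3, 56 were under 3000 bp, against 7382 of the 14376 tested. None of the 57 was intronless (0%), against 5.12% of all tested. The SE of the difference was 0.89 at *ATM* (27265 bp) and 0.21 at AT5G22730 (2174 bp), and its part in these counts was not tested. In *h3.3kd*, both H3K36me3 libraries were above both H3K4me3 libraries in 54 of these 57 genes (46.3% of all genes tested), and both H3K4me3 libraries were above in 482 of the 540 genes higher in H3K4me3 (20.9% of all). Leaving out H3K36me3 replicate 1 left 2 genes higher in H3K4me3 and 0 in H3K36me3, and leaving out H3K36me3 replicate 2 left 93 and 0. Leaving out H3K4me3 replicate 2 gave 1503 and 1501, and leaving out H3K4me3 replicate 1 gave 644 and 106. With each library centred on its median gene the counts were 1194 and 115. With reads lost to duplicate removal estimated they were 361 and 467, so that most calls were then higher in H3K36me3.

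The genes with the largest excess of H3K4me3 in the body included *GH3.1*, *LEC1* and *PRP4*. *GH3.1*, of the family that conjugates auxin to amino acids, had a body level of 1.65 and 1.79 for H3K4me3 and 0.677 and 0.630 for H3K36me3 (log2 difference 1.39 ± 0.21, limma adjusted p = 8.29e-07). *LEC1*, a regulator of embryo development, had 1.52 and 1.81 against 0.621 and 0.665 in the body (1.35 ± 0.23, limma adjusted p = 1.17e-05), although over its first 1000 bp it had neither mark, at 0.455 and 0.267 for H3K4me3 and 0.397 and 0.350 for H3K36me3. *PRP4*, for a proline-rich cell wall protein, had 1.66 and 2.41 against 0.665 and 0.964, and it shares 513 bp with a gene on the other strand. AT4G20700 and AT4G01985 made up the 5, with log2 differences of 1.40 and 1.35. In the other direction the 5 largest differences ran from -0.83 to -0.75 and were found at AT5G22730, for an F-box protein, AT5G64880, of unknown function, *SIRANBP*, for a Ran-binding protein, AT5G47890, for a subunit of respiratory complex I, and *GLB1*, for the nitrogen sensor PII. At AT5G22730 the body level was 0.865 and 1.02 for H3K4me3 and 1.64 and 1.72 for H3K36me3 (-0.83 ± 0.21, limma adjusted p = 0.00695). *GLB1* had 0.841 and 0.805 against 1.44 and 1.35, and it shares 73 bp with a gene on the other strand. The lack of overlap between the marks at these named genes was part of the rule that chose them.

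The fall of density within a gene, which does not depend on the scaling of the libraries, was called different at 2 genes. For 14326 genes of at least 2000 bp, log2 of the first 500 bp minus log2 of +1000 to +1500 bp was larger in H3K4me3 by a median of 0.40, but limma called this value larger in H3K4me3 at 0 genes (0%) and larger in H3K36me3 at 2 (0.014%). At an unadjusted p under 0.05 limma had 1204 genes, and limma-voom called 14 larger in H3K4me3 and 4 larger in H3K36me3. The count turned on the H3K36me3 libraries. Without H3K36me3 replicate 2, limma called 7561 genes larger in H3K4me3 and 213 larger in H3K36me3, with a median difference of 0.68, whereas without H3K36me3 replicate 1 it called 81 and 71 with a median of 0.11. Without H3K4me3 replicate 1 it called 4 and 5, and without H3K4me3 replicate 2 it called 0 and 0, with 48 genes at an unadjusted p under 0.05. The genes called were *LAC10*, for a laccase, and AT5G24240, for a phosphatidylinositol 4-kinase-like protein. In both, H3K4me3 was higher inside the gene than over the first 500 bp. *LAC10* had 0.747 and 0.557 over the first 500 bp and 1.53 and 2.1 at +1000 to +1500 bp in the H3K4me3 libraries, against 0.715 and 0.912 and then 0.733 and 0.819 in the H3K36me3 libraries (log2 difference -1.5 ± 0.32, limma adjusted p = 0.0379). AT5G24240 had 0.792 and 0.261 and then 1.5 and 1.77 in the H3K4me3 libraries, against 0.892 and 0.846 and then 1.16 and 0.978 in the H3K36me3 libraries, where both H3K36me3 libraries were also higher inside the gene.

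Most genes with one mark over their first 1000 bp had the other as well, and H3K36me3 without H3K4me3 was not found. A gene was said to have a mark at a level of at least 2 in both libraries and to lack it at a level under 1 in both, among 25862 genes with an H3 level of at least 0.3 in both WT H3 libraries. By this rule 9564 genes had H3K4me3 and 8856 had H3K36me3. The 7583 genes with both were 79.3% of the H3K4me3 genes and 85.6% of the H3K36me3 genes. H3K4me3 without H3K36me3 was found at 33 genes, or 0.345% of the genes with H3K4me3, and H3K36me3 without H3K4me3 at 0. Lacking a mark here means a level under the genome average, not absence. The median H3K36me3 of the 33 genes was 0.834 and 0.892, above the background of 0.406 and 0.334 in these libraries. Their median H3, at 1.68 and 1.03, was also above the background of the H3 libraries, at 0.703 and 0.869. The part of H3 in this excess of H3K36me3 was not tested. A further 3262 genes lacked both marks, and 14984 were in between. Among genes that lacked H3K4me3, the highest H3K36me3 was at AT1G28765, with 1.34 in its lower library, and among genes with H3K36me3 the lowest H3K4me3 was at *CLE45*, which encodes a signalling peptide, with 1.72 in its higher library. At a mean H3K4me3 level of 1 to 1.5 the median H3K36me3 was 0.777 and 0.905 in the H3K36me3 libraries, and at an H3K4me3 level of 2 to 2.5 it was 2.01 and 2.29.

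**Figure D4:**
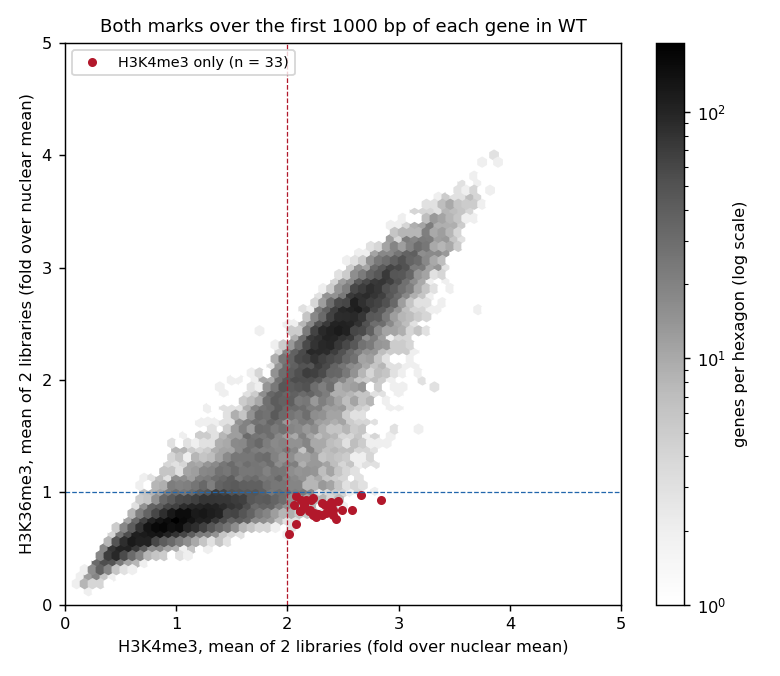
Level of H3K4me3 (x axis) against level of H3K36me3 (y axis) over the first 1000 bp of 25862 genes, each the mean of 2 WT libraries as fold over the nuclear mean, with the number of genes per hexagon in grey on a log scale. The 33 genes with H3K4me3 only (red) lie right of 2 and below 1, and no gene lies left of 1 and above 2.

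The count of H3K4me3-only genes depended on the rule, and under each rule tried no more than 1 gene was H3K36me3-only. The levels are folds over the nuclear mean. On this scale the median gene had 1.74 and 2.20 for H3K4me3 and 1.36 and 1.67 for H3K36me3. A rule with each library centred on its median gene was not tried, so the excess of H3K4me3-only genes may rest on the scaling. Levels of at least 1.5 for having and under 1 for lacking a mark gave 554 genes with H3K4me3 only and 0 with H3K36me3 only, and levels of 3 and 0.75 gave 0 and 0. Within replicate 1 the numbers were 227 and 1 (AT1G45229, named after its value was seen), and within replicate 2 they were 167 and 0. Leaving out H3K4me3 replicate 1 gave 159 and 0, and leaving out H3K36me3 replicate 2 gave 209 and 0. After division by the H3 library of the same replicate number the rule gave 0 and 0. The 33 genes had median H3 levels of 1.68 and 1.03, against 1.08 and 1.23 for all genes, above all genes in H3 replicate 1 and below them in H3 replicate 2. Over the body beyond +1000 bp the rule gave 0 genes with H3K4me3 only and 0 with H3K36me3 only. There, 174 genes had H3K4me3 and 158 had H3K36me3, and 53 had both. Within replicate 1 these numbers were 177, 1139 and 57, with 8 genes of H3K4me3 only, and within replicate 2 they were 642, 415 and 265, with 9 genes of H3K4me3 only. The order of the marks in the body thus turned between the replicates, and H3K36me3-only genes numbered 0 in each.

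The H3K4me3-only genes were short, often intronless and rich in the variant H2A.Z. Their median length was 1491 bp, against 2730 bp for genes with both marks and 2154 bp for all 25862 genes, and 20 of the 33 (60.6%) had no intron, against 8.89% of genes with both marks and 17.2% of all genes. Within 1000 to under 2000 bp, 14 of 2159 intronless genes were in the list (0.648%), against 4 of 6342 genes with introns (0.0631%). The median H2A.Z level over the first 1000 bp was 3.73 and 2.97, against 1.70 and 1.66 for all genes, and the median H1 level was 1.32 and 1.28 against 0.884 and 1.19. The 554 genes of the wider rule had a median H2A.Z of 2.91 and 2.54. In the *h3.3kd* libraries the H3K4me3 levels of the 33 genes had medians of 2.11 and 2.35 and the H3K36me3 levels 0.685 and 1.32. Both H3K4me3 libraries were above both H3K36me3 libraries in all 33 genes, against 38.9% of all genes. However, 0 of the 33 met the levels of the rule in *h3.3kd*.

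By name, the 10 H3K4me3-only genes with the most H3K4me3 were AT3G12440, *NF-YC7*, AT3G27416, *OFP7*, *GIK*, AT3G28840, *TTL2*, *ZIP5*, AT5G47980 and AT4G29570. AT3G12440 (chromosome 3, 3951108 to 3952260), for a ribonuclease H-like protein, had 2.52 and 3.15 for H3K4me3 and 0.945 and 0.918 for H3K36me3. *NF-YC7*, for a subunit of the trimeric CCAAT-binding factor NF-Y, had 2.40 and 2.93 against 0.981 and 0.972, and *NF-YC6*, the neighbouring gene on chromosome 5, was in the list too, with 2.23 and 2.19 against 0.884 and 0.976. All of these values lie on their own side of both limits by the rule, so they describe the list and test nothing. *OFP7*, of the OVATE family of transcriptional repressors, had 2.33 and 2.65 against 0.799 and 0.885, and *GIK*, for an AT-hook DNA-binding protein of the developing flower, 2.29 and 2.62 against 0.870 and 0.984. *ZIP5*, for a zinc transporter, had 2.12 and 2.70 against 0.684 and 0.998, with its H3K36me3 just under the limit of 1. AT1G19620, at 1.00, was the nearest gene outside that limit. The lowest H3K4me3 inside the list was 2.01 at AT4G29620, and the nearest value outside was 2.00 at AT4G26380. AT3G27416 lies on the other strand of AT3G27415 for all of its 522 bp.

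Other members are given as examples, chosen after their values were seen. *SPL*, required for the formation of spore mother cells, had 2.33 and 2.45 for H3K4me3 and 0.852 and 0.971 for H3K36me3. *HEC2*, a basic helix-loop-helix factor of the gynoecium, had 2.06 and 2.17 against 0.808 and 0.852, and *CYP78A5*, a cytochrome P450 that promotes organ growth, 2.12 and 2.13 against 0.878 and 0.991. AT4G29570, AT4G29600, AT4G29620, AT4G29630 and AT4G29640 encode cytidine deaminase family proteins in 1 cluster on chromosome 4, and AT4G19770 and AT4G19800 encode chitinase-like glycosyl hydrolases. Because only reads that map to 1 place were kept, levels at such copies can be incomplete for every antibody, and the 7 genes are not independent cases.

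The letters upstream of the TSS were read from the RefSeq TAIR10.1 genome to describe where the list stood among all genes. The motif TATAAA, the core of the TATA box, was searched on both strands from -50 to -20 bp. It was present in 5 of the 33 H3K4me3-only genes (15.2%), against 8.56% of genes with both marks, 14.2% of genes with neither and 10.9% of all. GGCCCA, searched on both strands from -250 bp to the TSS, was present in 0 of the 33, 23.7% of genes with both marks, 4.29% of genes with neither and 14.1% of all, and AAACCCTA in 1 of the 33 (3.03%), 4.35%, 3.99% and 4.52% of the same groups. In 9 of the 33 genes the annotated start is the first coding base, so the window may not sit upstream of the real start. The stretches from -50 to -21 bp of the 4 genes with the motif on their own strand are given below. They were chosen because they hold the motif and do not stand for the other promoters of the list. AT4G29570 and AT4G29620 belong to the same gene cluster. The stretches are written in the direction of transcription with TATAAA in capitals.
AT5G47980, chr5:19428838-19428867, plus strand: tttcttggggatttttcccTATAAAtaaag
AT4G29570, chr4:14507297-14507326, plus strand: TATAAAtaagttaagacattgctcctcctc
AT4G29620, chr4:14519813-14519842, plus strand: caaTATAAAtaggtaaagacctaatctcac
HEC2, chr3:18658398-18658427, minus strand: caatcctaattgtTATAAAttatatatgta

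The share of genes with each mark rose with gene length, and more so for H3K36me3. H3K4me3 was present by the rule in 7.85% of genes of 500 to under 1000 bp, 28.1% of 1000 to under 2000 bp, 45.4% of 2000 to under 3000 bp, 49.0% of 3000 to under 5000 bp and 60.3% of 5000 bp and more. H3K36me3 was present in 3.32%, 22.9%, 44.0%, 48.3% and 61.5% of the same classes. Of the genes with H3K4me3, 38.9% also had H3K36me3 in the shortest class and 91.0% in the longest. The share rose in every step between, with 65.6%, 82.5% and 87.1%. No H3K4me3-only gene was longer than 5000 bp. In the shortest class the window ends at the TES and is shorter than 1000 bp.

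**Figure D5:**
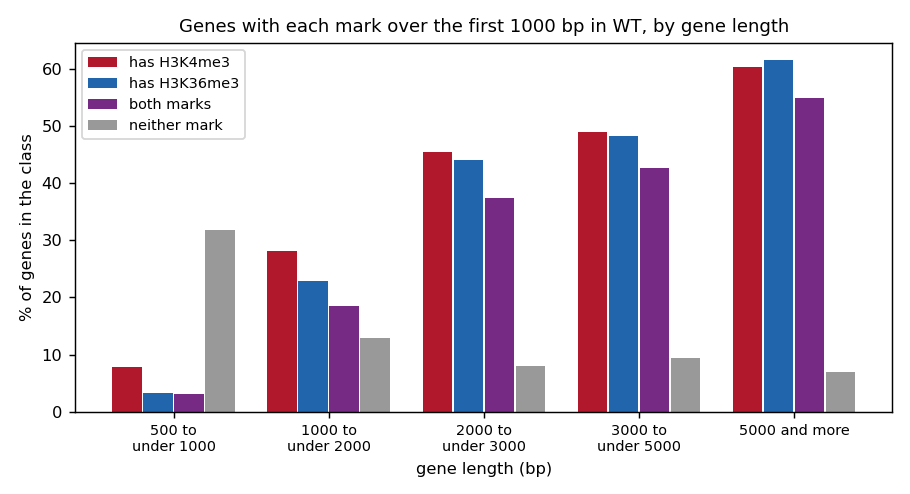
Percent of genes with H3K4me3, with H3K36me3, with both marks and with neither over the first 1000 bp (level of at least 2 in both WT libraries, or under 1 in both for neither), for 5 classes of gene length. The bars for H3K4me3 are 2 times those for H3K36me3 or more only in genes under 1000 bp (7.85% against 3.32%), and in genes of 5000 bp and more they are 60.3% and 61.5%.

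Gene families named in the annotation differed in how the marks were combined. Counts and medians are descriptions, and the lists were not tested. Of 268 pentatricopeptide repeat proteins, which act on organelle RNA, 171 had both marks (63.8%, against 29.3% of all genes), with a median level of 2.23 and 2.81 for H3K4me3 and 2.28 and 2.48 for H3K36me3. Aminoacyl tRNA ligases (35 of 64 genes, 54.7%) and ribosomal proteins (160 of 329, 48.6%) also had both marks often. The median log2 of H3K4me3 over H3K36me3 was 0.00 for the ligases and -0.02 for the ribosomal proteins, against 0.16 for all genes. Photosystem and light-harvesting genes had both marks in 32 of 62 cases, and their median was 2.42 and 2.94 for H3K4me3 and 2.02 and 2.55 for H3K36me3. By contrast, cytochromes P450, enzymes of secondary metabolism, had both marks in 13 of 245 genes (5.31%), with 1.40 and 1.41 for H3K4me3 and 0.825 and 0.945 for H3K36me3. The median log2 ratio was 0.53 for these genes, 0.56 for the SAUR-like auxin-responsive genes, 0.57 for seed storage and late embryogenesis genes and 0.49 for WRKY transcription factors. Under the wider rule of 1.5 and 1, 12 cytochromes P450 (4.90%), 4 SAUR-like genes (5.48%) and 10 seed genes (5.08%) were H3K4me3-only. So were 3 aminoacyl tRNA ligases (4.69%) and 3 WRKY genes (4.23%), against 2.14% of all genes and 4.89% of intronless genes. These were the highest shares, and the other lists ran from 0% to 3.31%. The AP2 list, with a median log2 ratio of 0.44, had 0 of 60. Defensin-like genes had neither mark in 48 of 69 cases (69.6%), against 12.6% of all genes. The lists for F-box, MADS-box, disease resistance, heat shock, histone, protein kinase, zinc finger, AP2 and hypothetical proteins had both marks in between 2.59% of genes, for MADS-box, and 42.6%, for heat shock.

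Of the single genes chosen as landmarks, the constitutive genes *ACT2*, *ACT7* and *GAPC1* had both marks at similar levels, whereas *UBQ10* had more H3K4me3. *ACT2* and *ACT7*, for actins, had 2.49 and 3.04, and 2.58 and 3.38, for H3K4me3 over the first 1000 bp, against 2.53 and 3.25, and 2.56 and 3.68, for H3K36me3. *GAPC1*, for a glycolytic dehydrogenase, and the clock genes *CCA1*, *LHY* and *TOC1* had both marks too. *UBQ10*, for polyubiquitin, had 2.25 and 2.73 for H3K4me3 and 1.09 and 1.71 for H3K36me3. Its body had 3.04 and 3.36 against 1.34 and 2.19 (log2 difference 0.89 ± 0.22, limma adjusted p = 0.00309). *PP2AA3*, for a phosphatase subunit used as a reference transcript, had 1.83 and 2.79 for H3K4me3 and 2.68 and 2.72 for H3K36me3.

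The seedling photosynthesis genes did not share 1 pattern. *RBCS1A*, for the small subunit of Rubisco, had 2.21 and 2.36 for H3K4me3 and 1.12 and 1.35 for H3K36me3 over the first 1000 bp. The light-harvesting gene *CAB2* had 1.79 and 2.53 over the first 500 bp for H3K4me3, against 0.812 and 1.35 for H3K36me3 (log2 difference 1.01 ± 0.32, limma adjusted p = 0.0372). *RCA*, for Rubisco activase, had both marks, with 2.96 and 3.07 for H3K4me3 and 2.09 and 2.54 for H3K36me3. *PSAD-1*, for a subunit of photosystem I, had 2.40 and 2.89 against 1.59 and 2.63. Over all 6 photosynthesis markers H3K4me3 ran from 1.66 to 3.07 and H3K36me3 from 0.790 to 2.63. Genes of this kind have close copies elsewhere in the genome, and *UBQ10* holds repeated units, so reads that map to more than 1 place are missing from them.

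The flowering, floral organ, meristem and seed genes among the landmarks had little of either mark, or more H3K4me3 than H3K36me3. *FT*, the mobile flowering signal, had 0.724 and 0.287 for H3K4me3 and 0.384 and 0.429 for H3K36me3, and *AG*, a floral organ identity gene, 0.915 and 0.391 against 0.552 and 0.482. *FLC*, the repressor of flowering, had 2.21 and 2.34 over the first 500 bp for H3K4me3 and 1.04 and 1.16 for H3K36me3 (log2 difference 1.03 ± 0.33, limma adjusted p = 0.0357), in a locus where an antisense gene spans all 6067 bp. *WUS*, the stem cell regulator of the shoot meristem, had 1.94 and 2.28 against 0.821 and 1.00 (1.19 ± 0.32, limma adjusted p = 0.00915). The seed storage gene *CRA1* had 2.09 and 2.53 in its body, against 0.908 and 1.1 (1.19 ± 0.21, limma adjusted p = 1.26e-05). *STM*, *FUS3* and *AP3* had H3K4me3 between 0.809 and 1.40 and H3K36me3 between 0.724 and 1.02. Of the marker lists, the 4 flower organ genes had H3K4me3 of 0.391 to 1.40 and H3K36me3 of 0.482 to 1.02, the 6 seed genes had H3K4me3 of 0.267 to 2.15 and H3K36me3 of 0.350 to 1.21, and the 4 root genes had H3K4me3 of 1.08 to 2.77 and H3K36me3 of 0.583 to 2.29.

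The genes for the enzymes of the marks carried both marks and were among the long genes in which the replicates parted. *SDG2* (11182 bp) had 2.96 and 3.35 for H3K4me3 and 2.93 and 3.41 for H3K36me3 over the first 1000 bp, and *ATX1* (7160 bp) 2.86 and 2.93 against 2.98 and 2.77. In the body beyond +1000 bp *SDG2* had 1.27 and 1.60 for H3K4me3 and 2.42 and 1.60 for H3K36me3, and *EFS*, the gene of SDG8 (9533 bp), 1.29 and 1.58 against 2.40 and 1.66. In both genes only H3K36me3 replicate 1 stood out, and limma gave adjusted p = 0.494 and 0.426. The longest genes with both marks behaved alike. *ATM*, for the DNA damage kinase (27265 bp, 77 introns), had 1.17 and 1.33 in the body for H3K4me3 and 2.41 and 1.32 for H3K36me3, AT1G48090 had 1.26 and 1.57 against 2.63 and 1.61, and AT4G17140 had 1.25 and 1.39 against 2.44 and 1.42. AT4G37280 and AT1G02740, for the MRG1 and MRG2 proteins that bind H3K4me3 and H3K36me3 in plants, had both marks, at 2.13 to 2.81 for H3K4me3 and 2.15 to 2.71 for H3K36me3.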

How the data were processed

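Per the paper's methods, the authors sequenced ChIP DNA of seedlings on plates, mapped reads to TAIR10 with Bowtie allowing up to 2 mismatches, kept reads that map to 1 place and removed reads at the same coordinates. The deposited files list read positions, not normalized, and the sources used here give no Bowtie version. Of 20 libraries, 14 were used, and the 6 *h3.3kd* libraries of H3, H2A.Z and H1 were not used here.

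Reads were placed at their leftmost base plus 25 bp, as 50 bp reads, on the 5 chromosomes of TAIR10.1, whose RefSeq annotation gave 26205 protein-coding genes of at least 500 bp. Each library was scaled to its nuclear reads. Profiles used 10 bp bins smoothed over 50 bp, and the background was the median of 3072 tiles of 1000 bp at least 2000 bp from any gene with H3 reads. Profile measures were tested by permuting the mark labels over the 4 libraries (exact, two-sided). Limma 3.58.1 in R 4.3.3 (lmFit and eBayes with a trend) was fitted to log2(RPM + 0.1) for windows averaging 10 reads or more, after a test on simulated data. In that test, false calls were 3.03%, 3.85% and 13.5% of calls for the first 500 bp, the body and the fall within the gene. Changes of log2 1 were recovered in 92%, 100% and 55%. The simulated libraries were independent with the same noise throughout, which may not hold for the real ones. Genes were named by a rule: the 5 largest differences in each direction among limma calls with at least 50 reads and no overlap between marks, the 10 top one-mark genes, the 3 longest genes with both marks, and 25 landmark genes. Gene names come from the annotation, and protein names and roles from its product text or from general knowledge of the genes. The members, gene lists and tests were chosen with earlier results of these data known. Alternatives were other scalings, read counting, filters, pseudocounts, limma-voom, thinning and leaving out libraries. Other steps ran in Python 3.11.15 (scipy 1.17.1, pandas 2.3.3, numpy 2.4.6).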

Additional observations from a re-analysis of the deposited data

How the results depend on the processing

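The longer reach of H3K36me3 (midway extent, share beyond +1000 bp and change of the fall with gene length) kept its direction in all 14 alternatives tried for each, and the midway extent ranged from -1720 to -130 bp (-1465 to -385 bp without single libraries). The peak position kept its direction in 11 of 13 and the slope with gene length in 12 of 13. When 1 library or both of 1 replicate number were left out, the peak difference ranged from -160 to 40 bp (30 bp without replicate 1) and the slope difference from -15.1 to 0.26 bp per kb. After division by H3 these were -10 bp and -38.2 bp per kb. The libraries of 1 replicate number alone and the estimate of reads lost to duplicate removal were added after seeing the data.

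For the first 500 bp, genes higher in H3K4me3 and higher in H3K36me3 numbered 991 and 52 without the filter on low windows, 2547 and 2 with each position counted once, 974 and 8378 with each library centred on its median gene, and 637 and 0 with lost reads estimated. Limma-voom gave 6 genes and thinned reads 2 genes higher in H3K36me3. Without single libraries the counts ranged from 0 to 1668 and from 0 to 16. For the body they were 1194 and 115 when centred, with ranges of 2 to 1503 and 0 to 1501 without single libraries. Genes higher in H3K36me3 numbered 25 without the filter, 216 with limma-voom, 13 with each position counted once and 467 with lost reads estimated, where 361 were higher in H3K4me3. For the fall within the gene, the counts were 1 and 2 at a pseudocount of 0.5, 0 and 0 without the filter, 14 and 4 with limma-voom, 1 and 1 with each position counted once, 0 and 1 with thinned reads and 0 and 1 with lost reads estimated, with ranges of 0 to 7561 and 0 to 213 without single libraries. A fit that leaves 1 library in a mark assumes that it varies like the pair of the other mark.

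With a replicate block the counts higher in H3K4me3 and in H3K36me3 were 5245 and 36 for the first 500 bp, 461 and 35 for the body, and 5 and 1 for the fall within the gene. Deviations of same-numbered libraries correlated at 0.53, 0.07 and -0.06 across genes. The labels give these libraries no more than a shared number, and same-numbered libraries that list a strand were alike in the distance between strands.

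H3K4me3-only genes numbered 0 at levels of 3 and 0.75, 554 at 1.5 and 1, 0 after division by H3, 92 with the highest 500 bp window, 14 with each position counted once, 60 with lost reads estimated and 37 to 227 without single libraries or 1 replicate number. H3K36me3-only genes numbered 0 to 1. The cause of these changes was not tested. Depth limits short windows of weak genes, and compression of high levels limits H3K4me3 replicate 2.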
